A study of Mus musculus with 2 samples.

Results

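The genes described here are 10 members of a tendon program and of the matrix that tendon and its attachments lay down: the regulators Scx and Mkx, the tenocyte membrane protein Tnmd, and the matrix genes Thbs1, Thbs2, Thbs4, Comp, Chad, Cilp and Cilp2. They were found by gene symbol among 55536 Ensembl genes, and each symbol matched 1 gene. The members were chosen by their uneven TPM between the libraries in an earlier look at these same data, so the ratios between the libraries are given as a description, with no test. Total RNA was sequenced from the gastrocnemius, the large calf muscle, of male B6CASTF1/J mice aged 36 days, which are first-generation hybrids of C57BL/6 and CAST. The labels give 1 group with 2 biological replicates, each from 300 ng of ribosome-depleted RNA with ERCC spike-ins, and no treatment or second genotype. Each replicate is its own biosample and mouse number per the labels, but both carry the same donor entry, so their spread may be partly technical. Replicate 1 had 36952277 expected counts and replicate 2 had 38754338. The parental alleles were not analysed here.

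Tendon is a fibrous tissue of collagen made by tenocytes, and it runs into the ends and along the sheets of a muscle such as the gastrocnemius. The transcription factors Scleraxis (Scx) and Mohawk (Mkx) act in tendon cells and favour collagen and tenomodulin (Tnmd) expression. Thrombospondins are large calcium-binding glycoproteins of the matrix. Thbs1 and Thbs2 assemble as trimers and bind cell surface receptors such as Cd36 and Cd47, whereas Thbs3, Thbs4 and Comp assemble as pentamers and bind collagen.

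The start regions of members are shown first. They are reference sequence and the same for both libraries, so nothing about the ratios between the libraries is read from them. Windows of 6 of the 10 members were taken from the RefSeq promoter table of build GRCm38.p6 (Tnmd, Thbs2, Thbs4, Chad, Cilp and Cilp2). Whether that table also lists the other members is not given here. Each window covers 250 bases before to 50 bases after the start that RefSeq gives the gene. That start is the GENCODE start for Thbs4, Chad and Cilp, but lies 28 bases downstream of it for Tnmd, 27 bases upstream for Thbs2 and 295 bases downstream for Cilp2, whose window is therefore inside the GENCODE gene. Those of Tnmd, Chad and Cilp2, whose TPM differed by about 2-fold between the libraries, are printed with those of Thbs4 and Cilp, which were closer to equal. Capitals mark matches to the E-box CANNTG, the site of basic helix-loop-helix factors such as Scx, or to the TATA box TATAAA, on either strand.

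Tnmd promoter (chrX:133850758-133851057, plus strand): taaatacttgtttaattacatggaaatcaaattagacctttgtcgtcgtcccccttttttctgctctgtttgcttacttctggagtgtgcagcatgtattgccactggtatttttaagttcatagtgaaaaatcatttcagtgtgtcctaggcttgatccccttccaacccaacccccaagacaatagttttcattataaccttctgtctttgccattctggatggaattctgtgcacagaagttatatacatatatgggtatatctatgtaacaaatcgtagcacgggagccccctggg
Chad promoter (chr11:94564797-94565096, plus strand): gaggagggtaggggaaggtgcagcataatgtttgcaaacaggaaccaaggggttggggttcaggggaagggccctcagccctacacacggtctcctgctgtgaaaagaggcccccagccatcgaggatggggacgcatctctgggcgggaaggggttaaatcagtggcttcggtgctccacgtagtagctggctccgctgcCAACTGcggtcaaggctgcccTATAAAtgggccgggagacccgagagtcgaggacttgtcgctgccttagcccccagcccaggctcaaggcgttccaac
Cilp2 promoter (chr8:69887343-69887642, minus strand): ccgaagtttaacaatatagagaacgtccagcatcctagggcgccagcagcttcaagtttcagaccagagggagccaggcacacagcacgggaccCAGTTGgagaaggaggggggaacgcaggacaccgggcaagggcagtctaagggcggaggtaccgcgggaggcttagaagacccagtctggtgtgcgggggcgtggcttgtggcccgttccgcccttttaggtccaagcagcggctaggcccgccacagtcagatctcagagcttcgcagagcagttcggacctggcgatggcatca
Thbs4 promoter (chr13:92794769-92795068, minus strand): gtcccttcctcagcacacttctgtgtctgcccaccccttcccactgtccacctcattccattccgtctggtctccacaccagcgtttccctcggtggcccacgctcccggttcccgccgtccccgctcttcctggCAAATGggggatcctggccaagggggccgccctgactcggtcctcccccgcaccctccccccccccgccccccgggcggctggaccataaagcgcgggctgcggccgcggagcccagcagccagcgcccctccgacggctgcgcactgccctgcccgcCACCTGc
Cilp promoter (chr9:65264930-65265229, plus strand): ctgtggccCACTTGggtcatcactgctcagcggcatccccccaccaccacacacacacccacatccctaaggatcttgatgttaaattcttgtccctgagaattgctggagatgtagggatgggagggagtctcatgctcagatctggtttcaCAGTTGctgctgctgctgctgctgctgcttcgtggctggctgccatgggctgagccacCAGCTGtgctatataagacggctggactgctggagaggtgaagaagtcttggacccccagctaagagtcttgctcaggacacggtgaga

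An E-box was found in 5 of the 6 windows, beside 72.3% of all 32851 promoter windows of that length. Tnmd had none, Chad and Cilp2 had 1 each, Thbs2 and Thbs4 had 2 each and Cilp had 3. The E-box form CAGATG, which is a subset of CANNTG, was in none of the 6 windows and in 17.2% of all promoters. TATAAA stood at position -28 in Chad and, on the other strand, at position -126 in Thbs2, and in 13.6% of all promoters. The SMAD-binding element CAGAC was in 3 of the 6 windows (Thbs2, Thbs4 and Cilp2) and in 49.6% of all promoters. The EGR site GCGTGGGCG was in none of the 6 and in 0.612% of all promoters, and the CArG box likewise in none of the 6 and in 1.63%. All motifs were searched on both strands, and a match is a string of letters only. Base composition differed widely: Tnmd was 40.0% G and C with 4 CpG, while Thbs4 was 72.0% with 24 CpG, beside medians of 52.7% and 7 over all promoters.

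The thrombospondins are related in sequence, so the longest stretch shared exactly between their main coding transcripts was read from GENCODE M21, to see whether reads could be mistaken between genes. The 2 longest among the 10 pairs of Thbs1, Thbs2, Thbs3, Thbs4 and Comp were the following.

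Thbs1 and Thbs2 shared run: ggagaccgctgtgacaactgccccta
Thbs4 and Comp shared run: cagaccatgaacagtgaccctggcct

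Each was 26 bases long and coding. The first lies in exon 15 of 22 of Thbs1 (chr2:118120893-118120918, plus strand, mm10) and in exon 15 of 22 of Thbs2 (chr17:14676284-14676309, minus strand). The second lies in exon 18 of 22 of Thbs4 (chr13:92755377-92755402, minus strand) and in exon 15 of 19 of Comp (chr8:70379696-70379721, plus strand). Both runs are shorter than the 100-base read implied by the effective lengths of the gene table. Cilp and Cilp2 shared at most 14 bases. Of the 31-base words of each member's main coding transcript, none occurred in the same orientation in a transcript of another gene for 8 of the 10 members. Thbs1 shared 0.172% of its words and Mkx 4.75%, nearly all of the latter with AC148004.2, an overlapping gene listed at 0 counts in both libraries.

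Levels were modest and dominated by 1 gene. TPM, a length-scaled abundance with the same total in each library, allows levels to be set beside each other. Thbs4 stood highest at 53.2 ± 5.15 TPM (mean ± SD, n = 2), with 806 of the 10348 nuclear protein-coding genes of at least 1 TPM above it. Tnmd followed at 12.5 ± 6.32 TPM, then Cilp (9.93 ± 0.177), Chad (9.36 ± 4.82), Thbs1 (7.79 ± 6.76), Comp (5.96 ± 3.33), Cilp2 (5.91 ± 3.02), Scx (4.29 ± 0.608), Thbs2 (3.71 ± 1.45) and Mkx (1.54 ± 1.27 TPM). Only the steps from Thbs4 to Tnmd and from Thbs2 to Mkx were free of overlap between the ranges of the libraries, so neighbours from Tnmd to Thbs2 in this order did not differ beyond their spread. These levels are relative to all listed features: rescaled over nuclear protein-coding genes, Thbs4 was at 129 and Tnmd at 30.6 TPM, and in the second transcript table at 73.7 and 19.5 TPM. Together the 10 genes held 137 TPM in replicate 1 and 90.9 in replicate 2, and without Thbs4 they held 80.6 and 41.3 TPM.

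**Figure D1:**
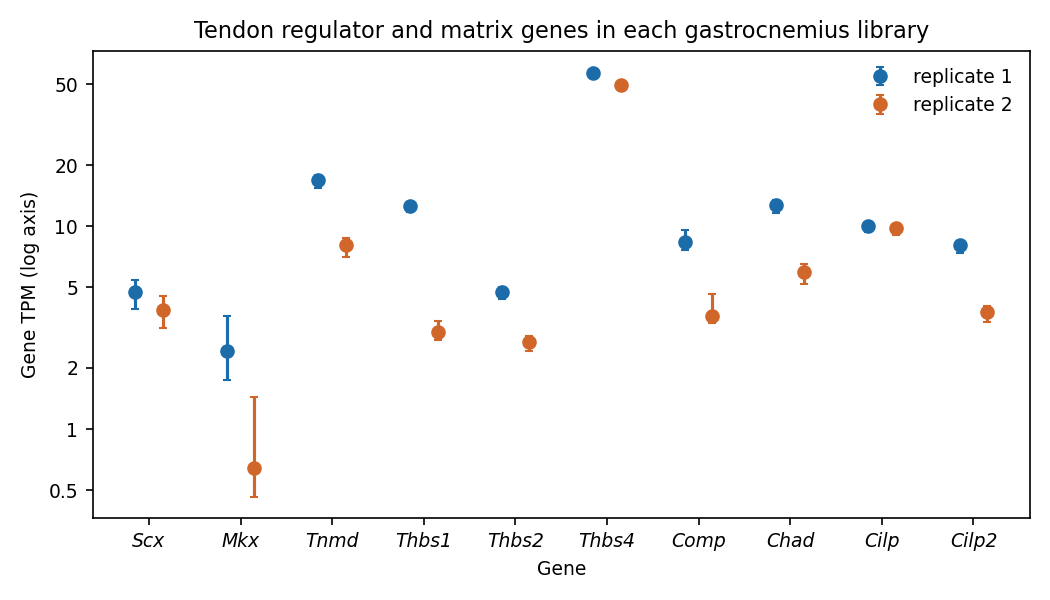
Gene TPM (log axis) of the 10 genes in each library, with points for the value and bars for the deposited credibility interval, which covers read assignment and counting only. Thbs4 sits near 50 TPM in both libraries, and the bars of the libraries overlap for Scx and Cilp. The share of all genes whose bars overlap is not given here, so nothing is read from the overlaps.

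The regulators were low, and they differed in how unequal the libraries were. Scx had 4.72 TPM in replicate 1 and 3.86 in replicate 2, from 150 and 121 expected counts. These credibility intervals, 3.91 to 5.44 and 3.15 to 4.53 TPM, overlapped, and the log2 ratio of replicate 2 over replicate 1 was -0.28 on the log2(TPM + 0.1) scale used throughout, which understates the ratios of low genes. In the second transcript table, made from the reads without the same alignments, Scx had 7.37 and 4.49 TPM and a log2 ratio of -0.70. Scx (chromosome 15, 76457452-76459458, plus strand) lies within the span of Bop1, a ribosome biogenesis gene on the other strand, which had 8.32 and 8.47 TPM. The labels call the libraries stranded, but none of the notes says whether counting used strand, so reads of Scx and Bop1 may not be fully separate.

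Mkx had 2.43 TPM in replicate 1 and 0.64 in replicate 2, from 105 and 44 expected counts, with a log2 ratio of -1.77. The size of that gap depended on how reads were given to its 4 transcripts. Mkx-203, a 425-base form with a retained intron, was given only 14.06 and 2.87 expected counts but 1.37 and 0.28 TPM, because TPM divides by a short length. The full-length coding form Mkx-201 had 0.76 and 0.37 TPM, a log2 ratio of -0.87, and the second transcript table gave Mkx-203 no reads at all. The ratio of the Mkx counts scaled by library total was -1.25 on the log2(CPM + 0.1) scale, with a 95% counting interval without pseudocount of -1.87 to -0.80 (exact binomial). Such intervals cover counting error only, not the spread between animals. Every version of the Mkx ratio had replicate 1 higher, but its size is uncertain.

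Tnmd encodes tenomodulin, a membrane glycoprotein of tenocytes whose gene depends on Scx in developing tendon. It was 16.97 TPM in replicate 1 and 8.03 in replicate 2, from 672 and 319 expected counts. Replicate 1 was thus 2.10-fold higher (log2 ratio -1.07). The credibility intervals of 15.4 to 17.9 and 7.03 to 8.75 TPM did not overlap. The share of all genes without overlap is not given here, so nothing is read from that. Tnmd (chromosome X, 133850980-133865577) has a single annotated transcript of 7 exons, so no choice of form enters its level.

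Thbs4 made up most of the thrombospondin transcripts in both libraries, and Thbs1 was the most uneven of all 10 genes. Thbs4, a pentameric thrombospondin of tendon and of the muscle attachment, had 56.86 TPM in replicate 1 and 49.57 in replicate 2, a log2 ratio of -0.20. Its credibility intervals, 54.3 to 57.5 and 47.2 to 50.2 TPM, did not overlap, although the difference was small. Thbs1, known as an activator of latent TGF-beta and an inhibitor of vessel growth, had 12.57 TPM in replicate 1 and 3.01 in replicate 2. That is 2244 against 549 expected counts, a 4.07-fold gap (log2 ratio -2.03), and 32 of the 11632 genes with a mean expected count of at least 50 had a lower ratio. Thbs2, its trimeric relative and a regulator of collagen fibre assembly, had 4.73 and 2.68 TPM (log2 ratio -0.80). Thbs1 was therefore 2.66 times the level of Thbs2 in replicate 1 but 1.12 times in replicate 2.

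Comp, the cartilage oligomeric matrix protein that binds collagen fibrils in tendon and cartilage, had 8.31 TPM in replicate 1 and 3.60 in replicate 2 (log2 ratio -1.18). Thbs3, the remaining family member, had 4.46 and 3.25 TPM with overlapping credibility intervals and a log2 ratio of -0.44. As shares of the summed TPM of the 5 genes, Thbs4 took 65.4% in replicate 1 and 79.8% in replicate 2. Thbs1 took 14.5% and 4.85%, Comp 9.56% and 5.80%, Thbs2 5.44% and 4.31%, and Thbs3 5.13% and 5.23%. The summed level of the pentamer genes was 4.02 times that of the trimer genes in replicate 1 and 9.92 times in replicate 2. The second transcript table gave nearly the same make-up, with Thbs4 at 65.9% and 79.5% and Thbs1 at 14.3% and 4.64%.

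**Figure D2:**
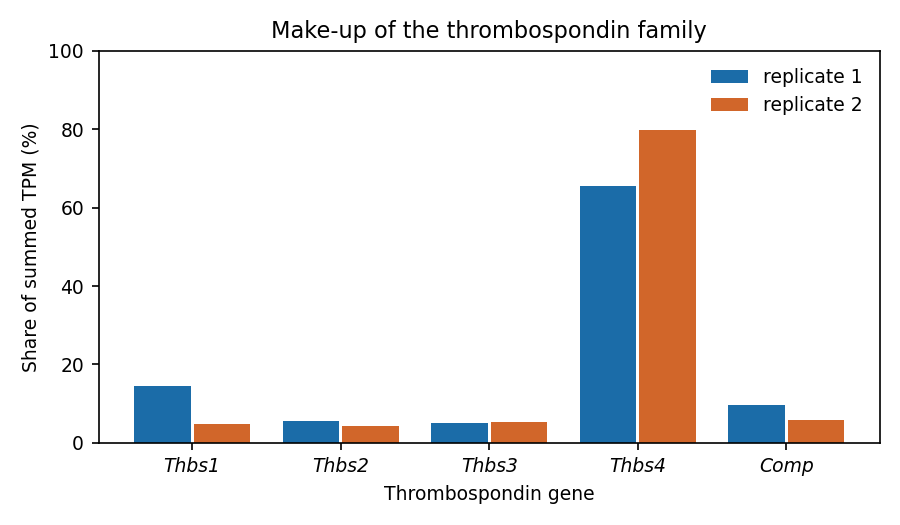
Share of the summed TPM of the 5 thrombospondin genes (%, axis from 0) in each library. Thbs4 leads with 65.4% and 79.8%, and Thbs1 is the gene whose share differs most in proportion, 14.5% in replicate 1 and 4.85% in replicate 2.

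The other matrix members divided into a pair that differed by about 2-fold and a near-equal one. Chad encodes chondroadherin, a leucine-rich matrix protein that binds collagen and integrins, and had 12.76 TPM in replicate 1 and 5.95 in replicate 2 (log2 ratio -1.09). Cilp2, a relative of the cartilage intermediate layer protein, had 8.04 and 3.77 TPM (log2 ratio -1.07), from 1070 and 504 expected counts. Cilp itself, a matrix protein that binds TGF-beta, had 10.05 and 9.80 TPM (log2 ratio -0.04), and its credibility intervals of 9.33 to 10.4 and 9.08 to 10.1 TPM overlapped. The ratio of Cilp to Cilp2 was 1.25 in replicate 1 and 2.60 in replicate 2. Chad lies within the span of Acsf2 on the other strand, which had only 0.74 and 0.86 TPM.

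Comp and Cilp2 are neighbours on chromosome 8, with 485870 bases between Cilp2 (69880369-69887687, minus strand) and Comp (70373558-70382066, plus strand). Both were more than 2-fold lower in replicate 2. Of the 26 genes between them, 16 had a mean expected count of at least 50, and none of these differed by 2-fold in either direction (median log2 ratio 0.12). The other members lie on chromosomes of their own, in mm10 coordinates from GENCODE M21. Thbs1 (ENSMUSG00000040152.8) spans chromosome 2, 118111876-118127133, plus strand, and Cilp (ENSMUSG00000042254.14) chromosome 9, 65265180-65280605, plus strand. Chad (ENSMUSG00000039084.8) spans chromosome 11, 94565047-94569127, plus strand, and Thbs4 (ENSMUSG00000021702.7) chromosome 13, 92751590-92794818, minus strand. Thbs2 (ENSMUSG00000023885.9) spans chromosome 17, 14665500-14694235, minus strand, and Mkx (ENSMUSG00000061013.6) chromosome 18, 6934518-7004780, minus strand. The identifiers of the remaining members are ENSMUSG00000031250.8 for Tnmd, ENSMUSG00000034161.8 for Scx, ENSMUSG00000031849.9 for Comp and ENSMUSG00000044006.8 for Cilp2.

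Single coding forms carried nearly all of the signal outside Mkx. The main coding transcript held 100% of TPM in Tnmd, Chad, Cilp and Cilp2, 99.5% ± 0.747 in Thbs2, 99.0% ± 1.35 in Thbs1, 99.0% ± 0.0757 in Thbs4, 97.2% ± 4.00 in Comp and 93.7% ± 1.24 in Scx. The remainder in Scx, 6.31% ± 1.24, was Scx-202, a form with a retained intron. In Mkx the main coding transcript held 31.3% of TPM in replicate 1 and 56.9% in replicate 2, and 44.0% and 42.2% in the second transcript table. These shares were not part of how the genes were picked.

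Set side by side, all 10 members had lower TPM in replicate 2, and 6 of the 10 were at least 2-fold lower: Thbs1, Mkx, Comp, Chad, Cilp2 and Tnmd. Of the 11632 genes with a mean expected count of at least 50, which all 10 members passed, 2.24% were at least 2-fold lower in replicate 2 and 0.576% at least 2-fold higher. The median log2 ratio was -1.07 over the members and 0.00 over those 11632 genes. Since the members were picked on this contrast, nothing is read from the difference. With 1 library on each side there is no replicate check and no p-value can be had. With a pseudocount of 1 instead of 0.1 the number at least 2-fold lower was 3 (Mkx, Thbs1 and Comp), beside 0.877% of all genes, as Tnmd, Chad and Cilp2 lie close to the threshold.

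**Figure D3:**
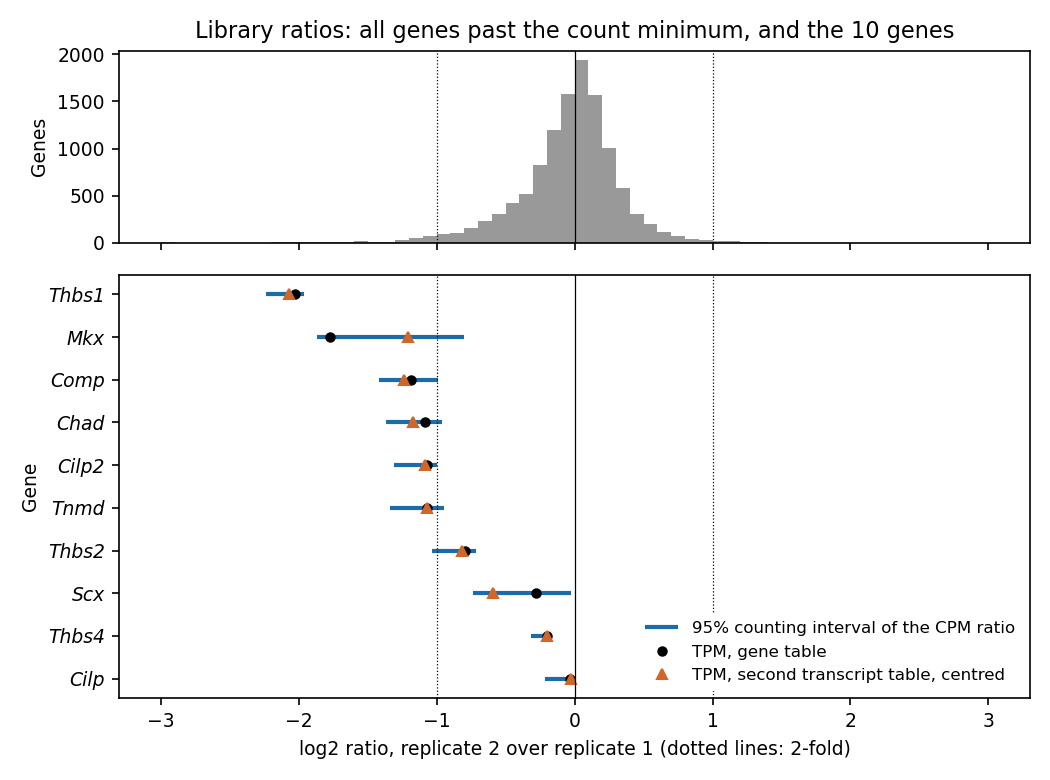
Histogram of log2 TPM ratios (replicate 2 over replicate 1) of 11632 genes, with values beyond 3 drawn at the edge, above the 10 genes ordered by ratio. Points are the gene table, triangles the second transcript table centred on its own median, and lines the 95% exact binomial interval of the scaled counts. Thbs1 lies near -2, Cilp near 0, and point and triangle stand well apart for Mkx and Scx only.

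Other genes of the same pathways were read from lists of receptors, TGF-beta genes and transcription factors. The members were picked for uneven TPM, so their counts are not set against those of these lists. The thrombospondin receptors held none of 8 genes past 2-fold in either direction, with a median log2 ratio of -0.17. Among them Cacna2d1, a calcium channel subunit that binds thrombospondins, had 125 and 108 TPM, and Cd36, a fatty acid transporter and thrombospondin receptor, had 76.6 and 107 TPM (log2 ratio 0.48). None of the 13 TGF-beta ligands, receptors, Smads and latency proteins passed 2-fold (median -0.16). Ltbp4 had the highest mean of that list, with 29.0 and 25.2 TPM. Smad7, the inhibitory Smad, had 1.88 and 3.20 TPM, a log2 ratio of 0.74, and of 0.36 in the second transcript table as given. Of 7 other transcription factors active in tendon or limb connective tissue, 1 was at least 2-fold lower in replicate 2 and none higher (median -0.09). That one was Egr2, with 1.95 and 0.35 TPM from 106 and 31 expected counts (log2 ratio -2.19).

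The other tendon matrix genes were lower in replicate 2 in 14 of 14 cases, with a median log2 ratio of -0.74, and 3 of the 14 were past 2-fold. Named after their values were seen, these were Col1a1, the main collagen of tendon (730 and 326 TPM, log2 ratio -1.16), its partner Col1a2 (453 and 220 TPM) and the collagen cross-linking enzyme gene Lox (10.4 and 4.68 TPM). Summed TPM of this list was 1924 in replicate 1 and 1030 in replicate 2. In the second transcript table as given, 4 of the 14 were at least 2-fold lower, with Tnc added (log2 ratio -1.05), beside 3.45% of all genes. Of the 11632 genes with a mean expected count of at least 50, 5694 had a log2 ratio below 0 in the gene table. At the myotendinous junction, where fibres insert into tendon, the collagen gene Col22a1 had 7.59 and 6.45 TPM (log2 ratio -0.23). Itga7 and Lama2, of the fibre's own matrix link, had 25.1 and 24.4 TPM and 27.3 and 22.0 TPM. None of these 3 genes, listed together under the myotendinous junction, passed 2-fold.

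Markers of some other cell types were also lower in replicate 2. In bulk RNA, fewer cells of a type and less RNA per cell cannot be told apart. Of the 9 Schwann cell markers, 8 were at least 2-fold lower in replicate 2, and their summed TPM was 483 and 111. Fibroblast markers were lower in 8 of 9 cases with a median of -0.43 (summed TPM 164 and 124), and 1 of them, Pi16, was past 2-fold (13.3 and 6.53 TPM), but not with a pseudocount of 1. Smoc2, the highest of that list, had 34.4 and 31.2 TPM. Of the 9 cartilage genes only Col2a1 had enough counts, with 2.63 and 0.75 TPM (log2 ratio -1.68). Acan, the defining cartilage proteoglycan gene, was at 0.10 and 0.11 TPM, and Col10a1 and Matn1 had 0 counts in both libraries. The 4 bone genes summed to 0.95 and 0.85 TPM, nearly all from Dmp1 (0.82 and 0.84 TPM). The part of these other tissues in the ratios of the members was not tested.

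Further lists were mixed. The 6 endothelial markers summed to 51.6 and 52.0 TPM, with Cdh5 at 17.8 and 18.7 TPM and Kdr at 2.69 and 5.12 TPM. Smooth muscle and pericyte markers summed to 144 and 111 TPM, with Rgs5 at 73.5 and 63.9 TPM and Tagln at 24.9 and 13.0 TPM. None passed 2-fold in the gene table, while Tagln did in the second transcript table as given (log2 ratio -1.02). Adipocyte markers lay the other way: Cfd had 19.6 and 34.8 TPM, and 1 of the 4 with enough counts, Cidec, was past 2-fold higher in replicate 2 (2.64 and 5.79 TPM), but not with a pseudocount of 1. Macrophage markers were below 0 in 4 of 4 cases, with Csf1r at 8.48 and 4.30 TPM and none past 2-fold. The fast fibre genes, the bulk of the tissue, had a median of 0.06, and Acta1 and Ckm had log2 ratios of 0.14 and 0.17.

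**Figure D4:**
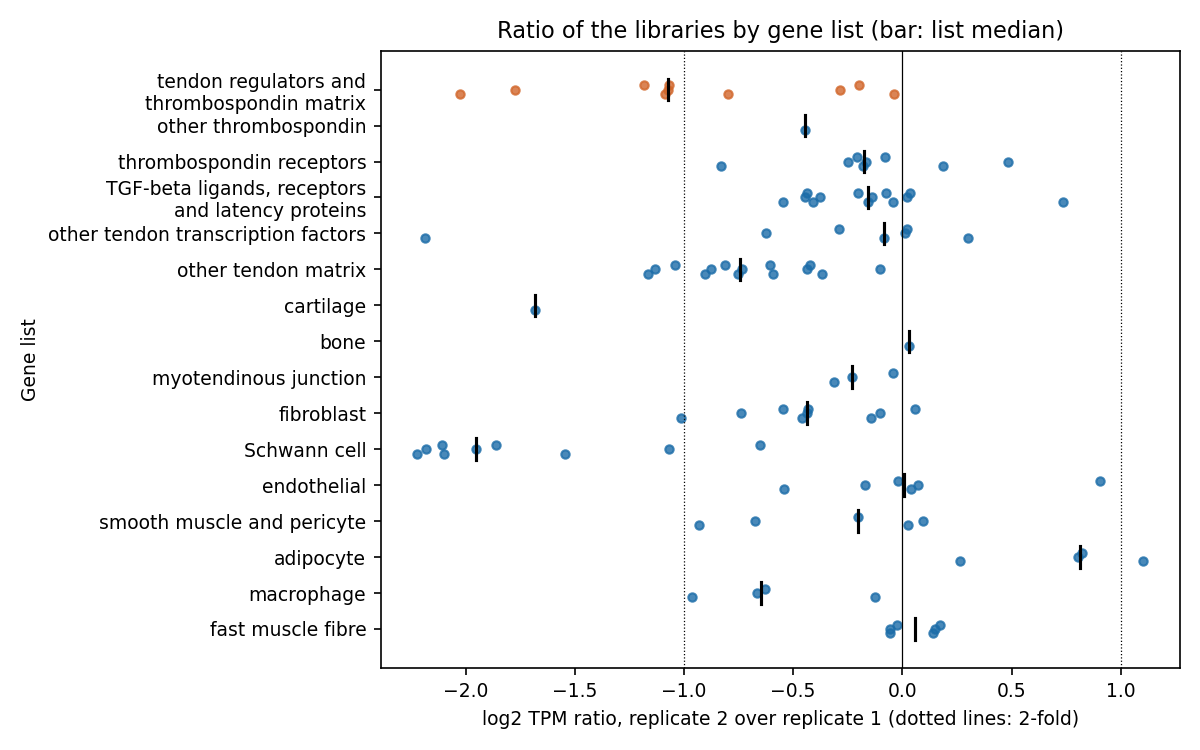
Log2 TPM ratio (replicate 2 over replicate 1) of each gene with a mean expected count of at least 50, by list, with a bar at the list median. The 10 members (orange) run from -2.03 to -0.04, the Schwann cell markers lie lowest with a median of -1.95, and the fast fibre genes lie around 0.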

How the data were processed

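For each library, gene-level values and 2 sets of transcript-level values were deposited, on mm10 with GENCODE M21, per the notes deposited with the files. By those notes, the gene and first transcript tables came from transcriptome alignments and have RSEM's column layout, and the second transcript table came from reads and an index and has kallisto's. The sources used here name no aligner, quantifier or version. The authors deposited expected counts (estimated reads, not always whole), TPM (scaled by length to a fixed total over all listed features), FPKM (used only as an alternative), the percent of each gene carried by each transcript (recomputed here from TPM) and credibility bounds of TPM of unstated level. Depth was 36952277 and 38754338 expected counts, so a count of 0 allows up to 3 reads, or 0.0812 and 0.0774 CPM. Nothing was pooled.

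All 55536 Ensembl genes matched the annotation. Each ratio divides replicate 2 by replicate 1, as a difference of log2(TPM + 0.1), and 2-fold counts use genes with a mean expected count of at least 50. The members, the 15 other gene lists and the rule for named genes were chosen with earlier results of these data known. The rule named all members and, of each other list, the gene with the highest mean TPM and that with the largest absolute log2 ratio at a mean of at least 1 TPM, plus Col22a1 and Thbs3; some genes it names are not reported here. Values were computed with Python 3.11.15 and pandas 2.3.3, exact binomial intervals (95%, Clopper-Pearson) with scipy 1.17.1, and TMM factors on rounded expected counts with edgeR 4.0.16. Alternatives were pseudocount 1, CPM, FPKM, rescaled TPM, TMM, the second transcript table and other count minimums. With 1 group of 2 libraries, labelled as separate mice but with the same donor entry, no test was possible.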

Additional observations from a re-analysis of the deposited data

How the results depend on the processing

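All 10 members kept a negative log2 ratio under each of the 7 other scalings, which were pseudocount 1, CPM, FPKM, TPM rescaled over nuclear protein-coding genes, TMM, and the second transcript table as given and centred. Of those 70 values, 60 moved by less than the distance from the middle to the end of the counting interval and 10 by more. All scalings express the same 2 libraries on which the members were picked, so the kept sign is not an independent check. The number of members at least 2-fold lower was 6 in all of these except with pseudocount 1, where it was 3. The share of all genes at least 2-fold lower was 0.877% with pseudocount 1 and 2.13% to 3.45% in the 6 others. The number of members was 5 under a count minimum of 200, and 6 with no count minimum or with intervals required not to overlap. The shares of all genes under these other count and interval rules are not given here, so nothing is read from those numbers. Centring and the interval rule were chosen after seeing the data. Rescaling over nuclear protein-coding genes raised all 10 levels by more than the SD between replicates (Mkx to 3.78 TPM, Scx to 10.4). Among the other lists, the number of fibroblast genes at least 2-fold lower and of adipocyte genes higher was 0 with pseudocount 1, smooth muscle had 1 lower in the second transcript table, and with no count minimum cartilage had 2 lower, bone 1 and adipocyte 1. Schwann cell markers had 7 lower with pseudocount 1 and 9 in the second transcript table, where other tendon matrix had 4. The second transcript table shifted the median of all genes by -0.11. Ranges were widest for Mkx (-1.93 to -1.06) and Scx (-0.70 to -0.24). The Mkx value of -1.06 was with pseudocount 1, and the Scx value of -0.70 was in the second transcript table as given. These members also had the fewest counts and the widest counting intervals. The ranges compare scalings of the same 2 libraries, so they do not measure counting error. No paired analysis was possible because there is 1 group. Leaving out either replicate leaves the other library's value, as printed for each gene.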
